A study of Mus musculus with 6 samples.

Results

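The neutrophil and platelet CXC chemokines lie side by side on mouse chromosome 5, and 6 of them were followed here in macrophage-lineage cells of tumours: Cxcl1, Cxcl2, Cxcl3, Cxcl5, Ppbp and Pf4. They were chosen by name as members of this cluster, with earlier results of these data known. All 6 were measured among the 19938 genes tested, each by 1 probe set. RNA came from cells positive for the macrophage antigen that Adgre1 encodes, taken out of tumours that had been implanted either in wild type mice (3 samples) or in St2-/- mice (3 samples), and each sample was hybridised to its own Affymetrix Gene ST array. That antigen marks macrophages in mice, and St2 encodes the receptor through which the alarm cytokine IL-33 acts. The labels give the host genotype only: they name neither the strain, the age of the mice nor the tumour, the knockout belongs to the host and not to the implanted tumour cells, and no purity of the sort is given. No label says that the 3 samples of one genotype are separate mice, so p-values rest on a spread that may be only technical.

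CXC chemokines are small secreted proteins that guide leukocytes. Those with the amino acids glutamate, leucine and arginine (ELR) ahead of their first cysteine, such as the products of Cxcl1, Cxcl2, Cxcl3 and Cxcl5, bind the receptor CXCR2 and draw neutrophils into inflamed tissue and tumours, and they are classic targets of NF-kB in macrophages, fibroblasts and epithelium. Ppbp encodes pro-platelet basic protein, which platelets store in their granules and which is trimmed into a CXCR2 ligand. Pf4 encodes platelet factor 4, a heparin-binding granule protein that lacks the ELR motif, and its transcript is also known from mouse macrophages.

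Expression is given as the deposited RMA value of each array on a log2 scale, and differences as St2-/- minus wild type, so that -1 is a halved signal. The arrays were alike, with correlations over genes of 0.996 to 0.998 within groups and 0.986 to 0.988 between groups, and no array stood apart. The macrophage markers Csf1r and Cd68 lay between 12.05 and 12.60 on every array (differences of 0.05 ± 0.06 and -0.04 ± 0.06, SE), and Adgre1, the gene of the sort antigen, was slightly higher in St2-/- (0.31 ± 0.06, SE; limma adjusted p = 0.00631). St2 itself is not among the named probe sets used here, so the genotypes were not checked against it. Because the arrays are bulk measurements, fewer cells of a type and less RNA per cell cannot be told apart in any value below.

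Of the 6 chemokine genes 5 fell in St2-/- and 0 rose. Over all genes 1998 of 19938 were called lower, 2142 higher and 20.8% in either direction (limma adjusted p under 0.05). Cxcl5 had the greatest difference of the 6 (-2.67 on the log2 scale), followed by Ppbp (-1.44), Pf4 (-1.03), Cxcl2 (-0.95) and Cxcl3 (-0.76), and Cxcl1 was not called (-0.20). A fall of at least 2-fold was called for 3 of the 6, Cxcl5, Ppbp and Pf4, against 0.878% of all genes. That count turns on the setting: Pf4 missed 2-fold after centring each array on its median (-0.94) and without wild type replicate 2 or St2-/- replicate 2 (-0.98 each), and Cxcl2 passed it after cyclic loess (-1.04), which leaves 2 to 4 genes. The median difference was -0.99 over the 6 genes and -0.02 over all genes. The arrays of the groups did not overlap for 5 of the 6 genes, where 36.4% of all genes did not overlap. Because the 6 genes were chosen with earlier results of these data known, these shares describe the group and do not test it.

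**Figure D1:**
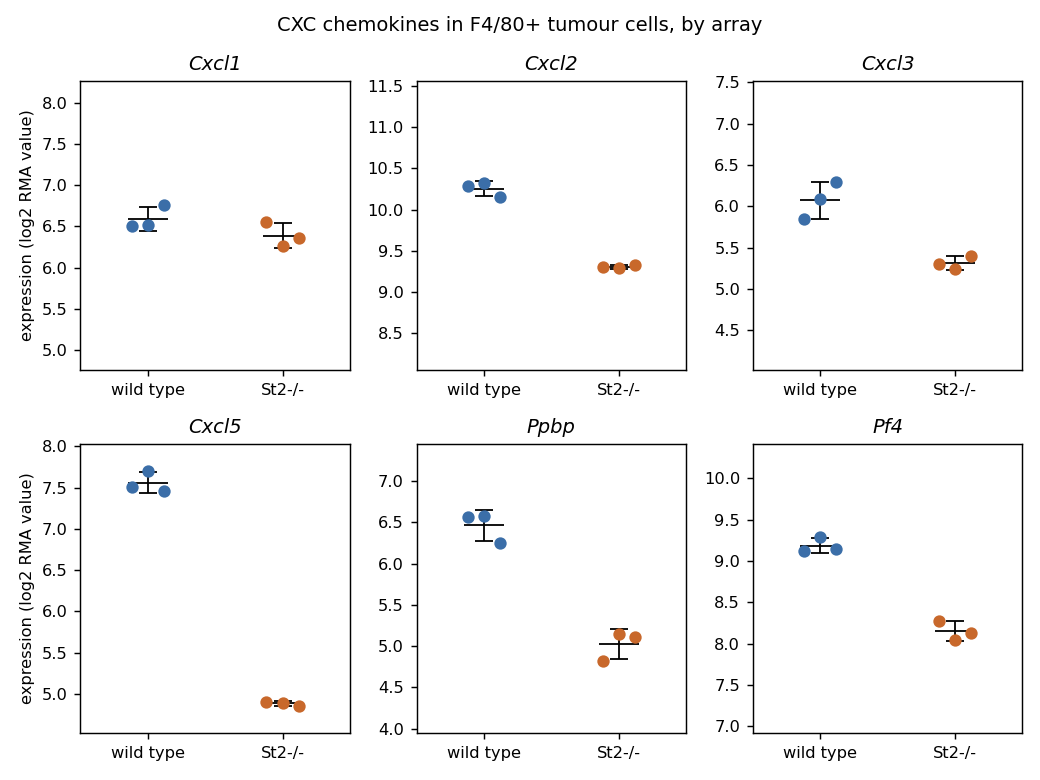
Expression of the 6 chemokine genes on each array (points; vertical axis in log2 RMA values, every panel spanning the same range of 3.5 log2 units), with the mean and SD of each group of 3 (black bars). The St2-/- arrays lie below all wild type arrays in every panel other than that of Cxcl1, and the distance is greatest for Cxcl5.

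The promoters of the neutrophil chemokines are shown because these genes share a well-known NF-kB control element, and the platelet genes are set beside them. RefSeq windows of 250 bases before to 50 bases after the gene start (GRCm38.p6) were found for 5 of the 6 genes, and the table used held none for Cxcl5. The 130 bases before each start are printed 5′ to 3′ on the plus strand, with matches in capitals to any of 5 motifs searched on both strands. These were an NF-kB motif (3 G, any 2 bases, 3 T and 2 C), the C/EBP motif TTGCNNAA, the AP-1 motif TGANTCA, the motif AGATAA of GATA factors and the TATA box with the letters TATAAA.
Cxcl1, chr5:90891115-90891244: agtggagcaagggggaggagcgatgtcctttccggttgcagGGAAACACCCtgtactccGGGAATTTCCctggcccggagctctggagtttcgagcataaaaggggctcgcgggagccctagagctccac
Cxcl2, chr5:90903769-90903898: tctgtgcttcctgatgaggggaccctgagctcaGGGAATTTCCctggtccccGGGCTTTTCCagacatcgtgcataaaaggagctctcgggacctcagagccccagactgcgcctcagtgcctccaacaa
Cxcl3, chr5:90785971-90786100: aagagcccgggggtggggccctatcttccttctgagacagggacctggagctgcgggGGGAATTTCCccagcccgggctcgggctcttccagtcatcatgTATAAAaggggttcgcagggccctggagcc
Ppbp, chr5:90768388-90768517: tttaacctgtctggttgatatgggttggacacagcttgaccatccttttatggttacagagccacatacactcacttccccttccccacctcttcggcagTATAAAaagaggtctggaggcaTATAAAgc
Pf4, chr5:90772305-90772434: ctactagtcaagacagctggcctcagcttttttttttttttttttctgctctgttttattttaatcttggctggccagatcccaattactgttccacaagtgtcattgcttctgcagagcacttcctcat

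Cxcl1, Cxcl2 and Cxcl3 each held the same run, GGGAATTTCC, between bases -97 and -62, counted from the start. Cxcl1 held a further NF-kB match on the minus strand (GGAAACACCC as printed) and Cxcl2 a further one on the plus strand (GGGCTTTTCC). The NF-kB letters matched in 1.63% of the 32851 RefSeq windows on either strand, and the run GGGAATTTCC, picked out after the matches were seen, in 0.0883% (29 windows). The TATA letters matched in Cxcl3 and at 2 places in Ppbp, and in 13.6% of all windows. Outside the printed stretch, Ppbp held an AP-1 match (7.81% of windows), and Pf4 held a C/EBP match (10.8%) and, 37 bases into the transcript, a GATA match (11.2%). These are matches of letters and say nothing of binding in these cells. The shared run was present upstream of Cxcl2 and Cxcl3, which fell, and of Cxcl1, which was not called. Apart from the members, 283 measured genes held the NF-kB letters, of which 39 fell, 37 rose and 207 were not called (26.9% called, against 20.8% of all genes; median difference -0.01). The shared run was held by 18 measured genes, of which 5 fell, 1 rose and 12 were not called (33.3% called, against 20.8% of all genes). Their median difference was -0.10. The 5 lower genes, named after their values were seen, were Cep112 (-0.56), Nfkbia, the NF-kB inhibitor gene (-0.51), Krtap5-3 (-0.46), Csad (-0.28) and Trio (-0.28), and the higher gene was the interferon-inducible GTPase gene Gbp5 (0.99).

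Cxcl5, known in mice as LIX, is a neutrophil attractant made by epithelium, platelets and stimulated macrophages. Its probe set (10523120) read 7.51, 7.70 and 7.46 on the wild type arrays and 4.91, 4.89 and 4.86 on the St2-/- arrays. The groups were 2.55 log2 units apart at their closest, and the St2-/- arrays agreed within 0.05. The means were 7.56 ± 0.13 and 4.89 ± 0.03 (SD, n = 3), a 6.36-fold lower level with a 95% interval of 5.66 to 7.16 (limma adjusted p = 2.86e-08). Over the whole array it had the 16th most negative difference of 19938 genes.

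Cxcl2, or MIP-2, is released early by macrophages after bacterial or tissue injury signals. It read 10.29, 10.32 and 10.15 in wild type and 9.30, 9.29 and 9.33 in St2-/- (probe set 10523156). All St2-/- arrays lay at least 0.82 below the lowest wild type array, and they were tighter than the wild type arrays (SD 0.02 against 0.09). The difference of -0.95 ± 0.07 (SE) is a 1.93-fold lower level, with a 95% interval of 1.73 to 2.14 (limma adjusted p = 1.07e-05).

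Cxcl3, the closest relative of Cxcl2 among mouse chemokines, read 5.84, 6.09 and 6.29 in wild type and 5.30, 5.24 and 5.40 in St2-/- (probe set 10523138). The groups were apart by 0.44, and the wild type arrays spread the most here of any member (SD 0.23). Its difference was -0.76 ± 0.11 (SE), 1.69-fold lower with a 95% interval of 1.43 to 2.0 (limma adjusted p = 0.000814). Cxcl1, Cxcl2 and Cxcl3 have similar coding sequences, and cross-hybridisation between their probe sets is possible, so their separate values carry that uncertainty.

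Cxcl1, or KC, is the mouse counterpart of the GRO chemokines and is made by many activated cells. It read 6.50, 6.52 and 6.76 in wild type and 6.55, 6.26 and 6.36 in St2-/- (probe set 10523151). The groups overlapped, since St2-/- replicate 1 lay above 2 of the wild type arrays. The difference of -0.20 ± 0.10 (SE) had a 95% interval of -0.42 to 0.01 and was not called (limma adjusted p = 0.18; unadjusted p = 0.064). That interval holds values from a fall of 0.42 to no change. The estimated differences of the other 5 genes lie below it, which is not a test of a difference between genes.

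Ppbp, the platelet basic protein gene, read 6.56, 6.58 and 6.25 in wild type and 4.82, 5.15 and 5.11 in St2-/- (probe set 10523128). The groups were 1.10 apart at their closest. The means were 6.46 ± 0.19 and 5.03 ± 0.18 (SD, n = 3), a 2.71-fold lower level with a 95% interval of 2.27 to 3.23 (limma adjusted p = 1.92e-05).

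Pf4, the platelet factor 4 gene, read 9.12, 9.29 and 9.15 in wild type and 8.28, 8.05 and 8.13 in St2-/- (probe set 10523134). Every St2-/- array lay at least 0.84 below every wild type array. The means were 9.19 ± 0.09 and 8.15 ± 0.12 (SD, n = 3), a 2.05-fold lower level with a 95% interval of 1.81 to 2.32 (limma adjusted p = 1.79e-05).

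In exact two-sided permutation tests over the 6 arrays, each of the 5 called genes had p = 0.1, the smallest that 3 against 3 arrays can give, and Cxcl1 had 0.3. The array table used here has no detection calls, so a low value is not called absent. The share of higher calls among all called genes was 51.7%, and 74% when each array was centred on its median, where the same 5 of the 6 chemokine genes were still called lower.

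**Figure D2:**
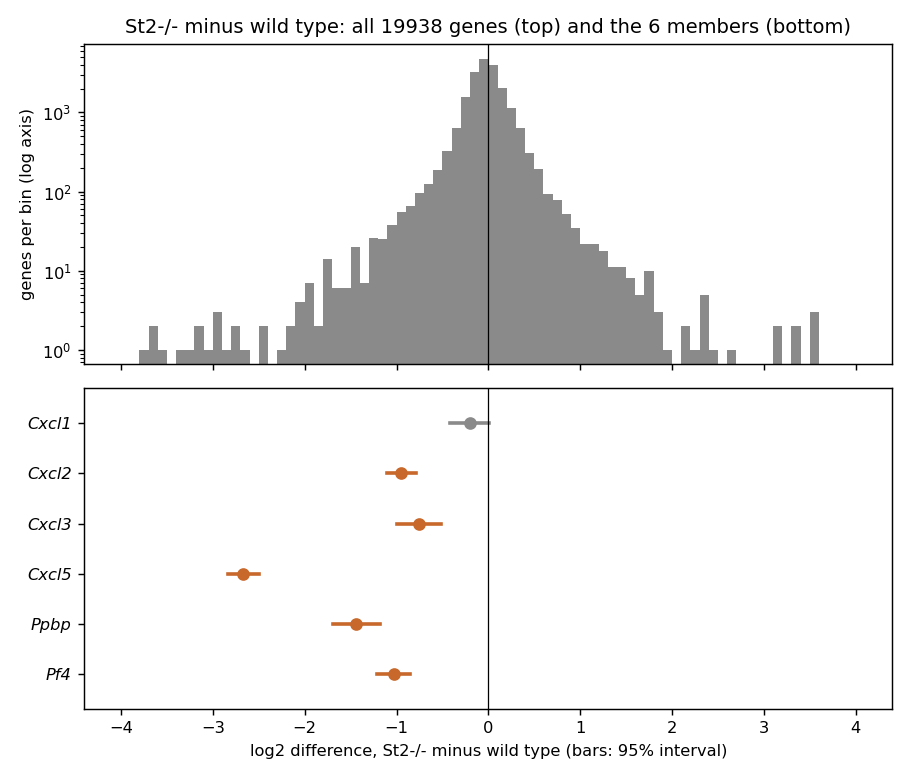
Distribution of the log2 difference, St2-/- minus wild type, over all 19938 genes (top, bins of 0.1, log vertical axis) and the difference of each chemokine gene with its 95% interval (bottom; orange, called lower; grey, not called). Cxcl5 at -2.67 lies far out on the lower side of the distribution, and the interval of Cxcl1 reaches 0.

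The sizes of the 6 differences were then set against each other. Within each array one member's value was subtracted from another's, and the groups were compared for all 15 pairs. The arrays of the groups were apart for 11 pairs, including all 5 pairs with Cxcl1 and all 5 with Cxcl5. The 15 pairs are built from 6 genes and are not independent. The share of all gene pairs that lie apart was not computed, so the count has no background beside it. The pairs with Cxcl5 gave these values: its change minus that of Ppbp was -1.23 ± 0.14 (SE) and minus that of Pf4 -1.64 ± 0.07, and the change of Cxcl2 minus that of Cxcl5 was 1.72 ± 0.05 and that of Cxcl3 minus that of Cxcl5 1.91 ± 0.17. The change of Cxcl1 minus that of Cxcl2 was 0.74 ± 0.16, and minus that of Cxcl3 0.56 ± 0.11 (SE). The groups overlapped for the other 4 pairs: Cxcl2 and Cxcl3 (-0.19 ± 0.18), Cxcl2 and Pf4 (0.09 ± 0.09), Cxcl3 and Pf4 (0.27 ± 0.15) and Ppbp and Pf4 (-0.40 ± 0.20, SE, first minus second). Each of the 11 pairs had the smallest exact permutation p of 0.1 (0.136 after Benjamini-Hochberg over the 15 pairs), so no pair can pass this test with 3 against 3 arrays, and no other test of the pairs was run. RMA compresses low signals, and how far the St2-/- levels of Cxcl5 (4.89) and Ppbp (5.03) lie above background is not known. The part of this limit in the pair differences with either gene was not tested.

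**Figure D3:**
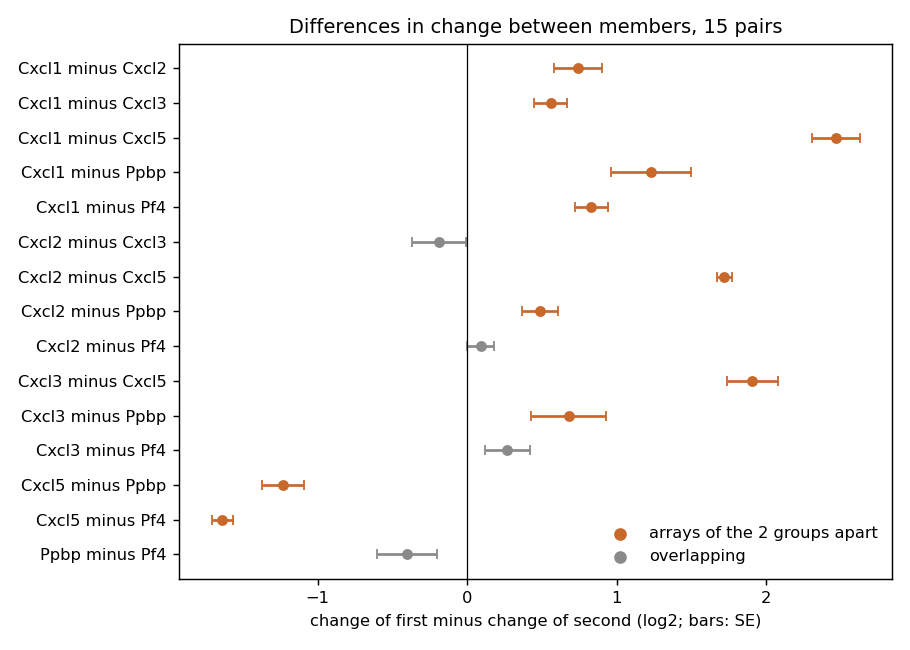
Difference in log2 change between the members of each of the 15 pairs (point, change of the first gene minus change of the second; bars, SE over 3 arrays per group). Cxcl5 had the greater fall in each of its pairs. The value is positive where Cxcl5 comes second (2.47 with Cxcl1) and negative where it comes first (-1.64 with Pf4). The 4 grey pairs are those whose arrays overlapped between groups.

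Among the 27 measured genes examined in order along chromosome 5, those called lower were 5 of the 6 chemokine genes and 1 neighbour. The RefSeq order of measured genes runs Cxcl5, Ppbp, Pf4, Cxcl3, Cxcl15, Cxcl1 and Cxcl2. Cxcl15, an ELR chemokine known from lung, is the only other measured gene inside the run and was not called: it read 3.56, 3.46 and 3.65 in wild type and 3.29, 3.47 and 3.53 in St2-/- (-0.13 ± 0.08, SE). Of the 10 measured genes on each side, 1 was higher, 1 lower and 18 not called. That is 9.52% called of the 21 genes that are not members, against 20.8% of all genes. Many of the 21, among them Rassf6 and Cxcl15, were among the dimmest 40% of genes, and 0 of the 6 members were. RMA compresses low signals, so a fall in such genes may not be seen. The nearest were Rassf6 before Cxcl5, which differed by -0.01, and Mthfd2l after Cxcl2, which differed by -0.05. The called ones, named after their values were seen, were Cox18 (0.60) and Thap6 (-0.55), at 8 and 7 measured genes from the run.

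**Figure D4:**
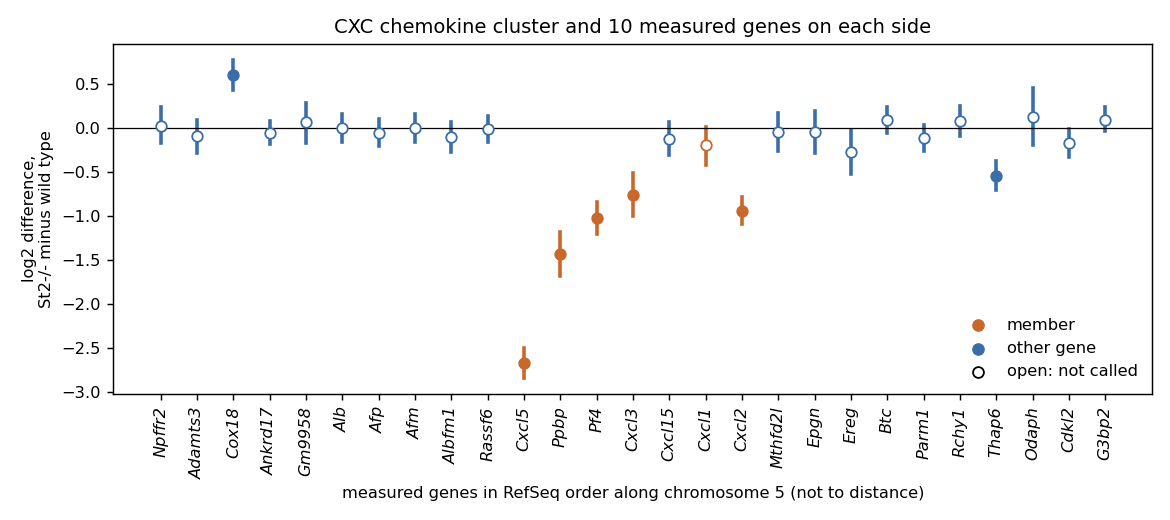
Log2 difference, St2-/- minus wild type, with 95% interval for the 6 chemokine genes (orange), Cxcl15 and 10 measured genes on each side (blue), in RefSeq order along chromosome 5 without distances. Open points were not called. Cxcl5, at the start of the run, has the lowest value, and the adjoining Rassf6, a dim gene, lies at -0.01.

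The genes whose values over the 6 arrays were most like those of each called member were found by the root mean square distance between values centred on each gene's mean, which mostly reflects a difference between the groups of like size. For Cxcl5 they were Ptn, the growth factor pleiotrophin (distance 0.04, difference -2.70), F13a1, coagulation factor XIII of platelets and macrophages (0.08, -2.73), and the folate receptor gene Folr2 (0.10, -2.84). For Cxcl2 they were Pls3, Gpc1 and Serpinb6a (distances of 0.04, differences of -0.89 to -0.94). For Cxcl3 they were Ahnak2, Cd28 and Slit2 (0.08 to 0.09). For Ppbp they were Arsb, Rasgrp3 and Mfsd6 (0.11 each), and for Pf4 Camk1g, Plec and Xdh (0.05 to 0.06). The other member nearest to Pf4 was Cxcl2 at a distance of 0.10, as the 31st nearest gene, and the member nearest to Cxcl5 was Ppbp at 0.63.

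The receptor list held chemokine receptors and scavengers in general, not only those of these chemokines. Of its 8 genes 1 was higher, 2 were lower and 5 were not called (median -0.05), where 20.8% of all genes were called. Several of them, Cxcr1 and Cxcr2 included, were among the dimmest 40% of genes. Cxcr2, the receptor of the ELR chemokines on neutrophils, read 4.39, 3.98 and 4.10 in wild type and 3.85, 3.87 and 3.65 in St2-/-, and its fall (-0.37 ± 0.11, SE; limma adjusted p = 0.04) lost its call when any array other than wild type replicate 2 was left out (0.0641 to 0.139), after centring (0.0786) and after cyclic loess (0.0746). Without those calls 1 lower gene remained, Ackr3, a scavenging receptor (-0.77 ± 0.11, SE). Cxcr3, the receptor of the interferon-inducible chemokines and a reported receptor of platelet factor 4, rose by 0.72 ± 0.07 (SE; limma adjusted p = 9.51e-05). Cxcr1 read 4.86, 4.96 and 5.05 in wild type and 4.84, 4.97 and 4.71 in St2-/- and was not called.

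Of 9 measured CXC chemokine genes outside this group 4 were higher, 0 lower and 5 not called (median 0.15, limma adjusted p under 0.05). The share called over all genes was 20.8%. Some of the 5 genes not called, Cxcl15 among them, were among the dimmest 40% of genes, where a fall may not be seen. The B cell attractant gene Cxcl13 rose by 2.40, the T cell attractant genes Cxcl11 and Cxcl9 by 2.38 and 0.37, and Cxcl16, a membrane-bound chemokine, by 0.58. Cxcl10 read 11.62 to 11.72 in wild type and 11.64 to 11.70 in St2-/- and was not called.

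Among 16 measured genes for cytokines that induce neutrophil chemokines, and for their receptors, 5 fell, 1 rose and 10 were not called (median -0.15). Over all genes 20.8% were called in either direction. Il33, whose product signals through ST2, fell by 1.93 ± 0.08 (SE) on the log2 scale. Il1a fell (-0.59 ± 0.10) while Il1b, the other main ligand of the IL-1 receptor, rose (0.65 ± 0.06, SE), with wild type arrays at 8.81, 8.86 and 8.82 and St2-/- arrays at 9.49, 9.52 and 9.42. Il17rc, a chain of the IL-17 receptor, fell (-0.72 ± 0.07), and the cytokine gene Tnf fell by 0.35 ± 0.06 (SE). Il17a and Csf3 were not called (-0.18 ± 0.12 and -0.05 ± 0.14, SE).

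Among 22 measured regulators of chemokine transcription and mRNA decay, 8 fell, 3 rose and 11 were not called (median -0.04), where 20.8% of all genes were called. The lower regulators included the immediate early genes Egr1 (-0.78) and Fos (-0.58). Zfp36 and Zfp36l1, which encode proteins that speed the decay of AU-rich mRNAs, also fell (-0.60 and -0.51). The 3 that rose, named after their values were seen, were Bcl3 (0.5), Cebpa (0.36) and Elavl1 (0.23). Of the NF-kB subunit genes measured, Rela, Rel, Relb and Nfkb2 were not called, with differences from -0.09 to 0.09, and Nfkbia, a target of NF-kB that encodes its inhibitor, fell by 0.51 ± 0.07 (SE).

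Some markers of other cells that could carry these transcripts moved with genotype too, and their part in the falls was not tested. Each marker list is to be read against the 20.8% of all genes called in either direction. Of 15 measured platelet and megakaryocyte markers, set beside Ppbp and Pf4, 6 fell, 0 rose and 9 were not called (limma; median -0.14), and their mean level was 5.95 to 5.96 over the wild type arrays and 5.66 to 5.72 over the St2-/- arrays. Of their defining genes, Gp9, a platelet glycoprotein gene, fell by 0.57 ± 0.07 (SE), and Tubb1, the platelet tubulin gene, fell by 0.27 ± 0.08 but lost its call after centring (limma adjusted p = 0.132), after cyclic loess (0.0976) and without any array other than St2-/- replicate 1 (0.0555 to 0.124). Itga2b, the platelet integrin gene, differed by -0.23 ± 0.09 and was not called, with a call only without wild type replicate 1 (0.0493). Thbs1, made by platelets and macrophages, fell by 0.98 ± 0.06, and Itgb3 and P2ry1 fell by 0.66 and 0.44 on the log2 scale. Set beside these, Ppbp differed by -1.44 ± 0.11 and Pf4 by -1.03 ± 0.08 (SE), and no difference between either gene and a marker was tested.

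Of 19 measured neutrophil markers 6 fell, 3 rose and 10 were not called (median -0.12), with mean levels of 5.49 to 5.51 in wild type and 5.03 to 5.06 in St2-/-. The siderophore-binding protein gene Lcn2 (-2.90), S100a8 (-1.77), S100a9 (-1.69), Retnlg (-1.28) and the protease gene Mmp9 (-0.92) fell. The 3 that rose, named after their values were seen, were Il1r2 (0.53), Csf3r (0.5) and Trem1 (0.24). Over the alternative settings 2 to 3 genes of this list were called higher. Ly6g, the defining surface marker of mouse neutrophils, read 4.11, 3.95 and 4.36 in wild type and 3.95, 3.97 and 4.14 in St2-/-, with overlapping groups and no call (-0.12 ± 0.10, SE), and the granule genes Camp, Ltf, Ngp, Mmp8 and Elane were not called either. Ly6g and these granule genes were among the dimmest 40% of genes, where a fall may not be seen.

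Of 13 markers of resident-type macrophages 11 fell and 2 were not called (median -1.64), with mean levels of 8.55 to 8.58 in wild type and 6.76 to 6.84 in St2-/-. Cbr2 (-3.70), Vsig4 (-3.61), Folr2 (-2.84) and Mrc1 (-1.64) fell. Of 11 general macrophage markers 4 rose, 4 fell and 3 were not called (median 0.05), with Mertk (-0.72), Msr1 (-0.76) and Lyz2 (-0.71) lower and Aif1 higher (0.59). Of 7 monocyte markers 5 fell, 1 rose and 1 was not called (median -0.61), with F13a1 (-2.73), Fn1 (-1.72) and Chil3 (-1.53) lower and Plac8 higher (3.18).

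Of 12 fibroblast markers, from cells that can make Cxcl1 and Cxcl5, 8 fell, 1 rose and 3 were not called (median -0.74; mean levels of 7.33 to 7.35 in wild type and 6.22 to 6.33 in St2-/-). Lum (-3.56), Dcn (-3.33), Pdgfra (-1.74) and Pdgfrb (-1.40) fell, and Col1a2, named after its values were seen, rose (0.35). Of 12 endothelial markers 8 fell, 3 rose and 1 was not called (median -0.40), with Flt1 (-2.02), Cdh5 (-1.46) and Vwf (-1.13) lower and Kdr higher (1.52). Of 11 epithelial markers 2 fell and 9 were not called (median -0.04; mean levels of 5.60 to 5.77 in wild type and 5.58 to 5.61 in St2-/-). Of these, Krt8 (-0.35) lost its call after centring (limma adjusted p = 0.0656) and without any array other than wild type replicate 1 (0.0605 to 0.101), and Cldn3 (-0.26) after centring (0.138) and without any array other than wild type replicate 2 (0.0587 to 0.142). Of 11 mast cell and basophil markers 2 fell and 9 were not called (median -0.06): the histidine decarboxylase gene Hdc fell (-1.02), and Kit (-0.38) lost its call without St2-/- replicate 2 (limma adjusted p = 0.0592) and with every probe set of the table tested (0.0521). All of these lists are to be read against the 1998 genes called lower and the 2142 called higher among all 19938. The epithelial list and the mast cell and basophil list each had 2 of 11 genes called. That share is not above the 20.8% called over all genes.

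**Figure D5:**
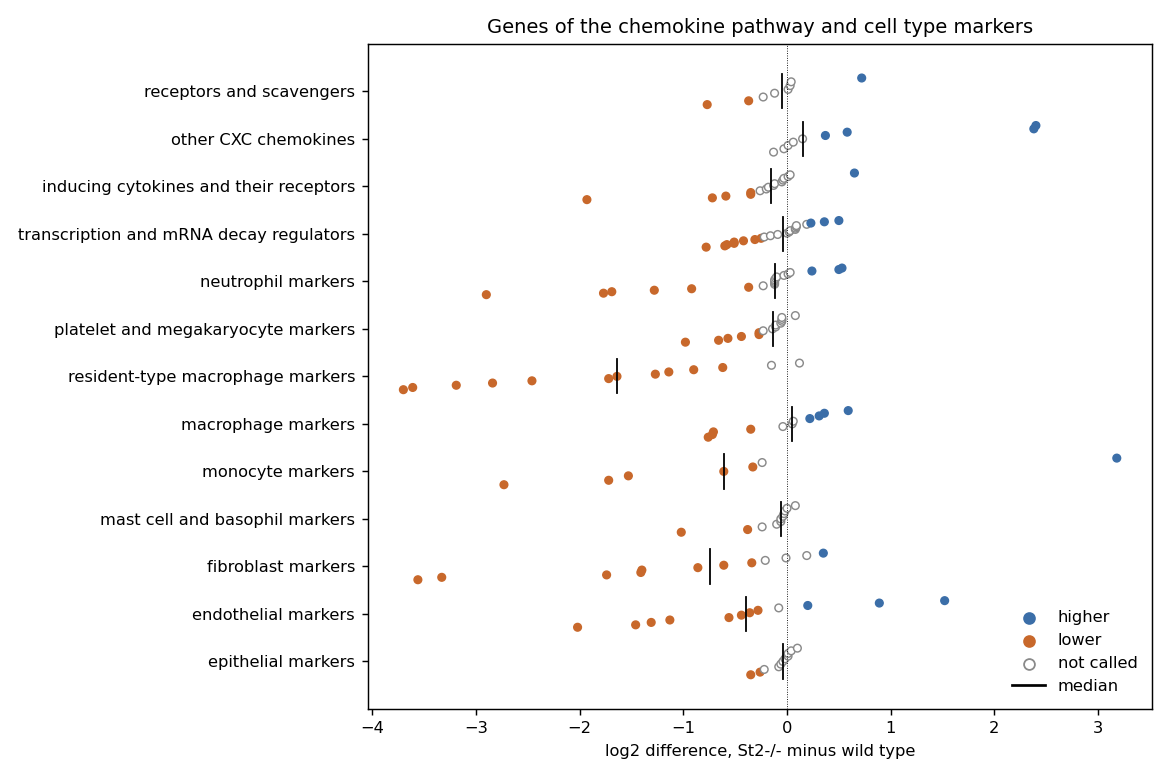
Log2 difference, St2-/- minus wild type, of each measured gene of the 13 pathway and marker lists (points; blue, called higher; orange, called lower; open, not called; black line, median of the list). The resident-type macrophage list has the lowest median at -1.64, and the other CXC chemokines hold calls in the higher direction only.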

How the data were processed

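Total RNA of 6 samples was put on Affymetrix Gene ST arrays, per the labels' protocols. The authors deposited log2 expression values, which per the submitters' processing notes come from RMA. The sources used here give no version, annotation or log base for it, and log2 was taken from the range of the values. RMA normalizes arrays to like distributions, so a shift common to most genes cannot be seen, and low signals are compressed. Of 35556 probe sets, 21789 were paired with 1 gene symbol, and each gene was read from its brightest such probe set, by the mean of all 6 arrays (19938 genes). Of the gene identifiers 99.6% matched RefSeq (GRCm38.p6), used for names, gene order and promoters. The groups were compared with limma 3.58.1 in R 4.3.3 (lmFit, eBayes, two-sided, Benjamini-Hochberg over all genes, adjusted p under 0.05), with no filter on dim genes. The script was tested on simulated data. The number of arrays limits the precision, and no scan date or batch is given.

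The members, lists and motifs were chosen with earlier results of these data known. Of 177 symbols in the lists 165 were measured. Named genes are the members, up to 4 called genes with the smallest p of each list, the fixed defining markers, the 3 genes most like each called member and the nearest neighbours. Outside this rule, Cxcl10, Cxcl15, Cxcr1, Il17a, Csf3, Tnf, Nfkbia, Rela, Rel, Relb, Nfkb2, Camp, Ltf, Ngp, Mmp8, Elane and the genes marked so in the text were chosen after their values were seen. The alternatives were other array scalings, variance priors, array weights, probe set rules, leaving out the dimmest 40% of genes, a replicate block and leaving out each array. Protein sequences were not used here.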

Additional observations from a re-analysis of the deposited data

How the results depend on the processing

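The calls of all 6 chemokine genes were the same under each of 15 alternatives: 5 called lower, 0 higher and Cxcl1 not called. The difference of Cxcl5 ranged from -2.72 to -2.58, of Ppbp from -1.54 to -1.33, of Pf4 from -1.12 to -0.94, of Cxcl2 from -1.04 to -0.86 and of Cxcl3 from -0.88 to -0.65, with limma adjusted p-values of at most 0.00992. That of Cxcl1 ranged from -0.28 to -0.11 (adjusted p from 0.0897 to 0.443). With each array centred on its median, 3686 genes were called higher and 1294 lower, against 2142 and 1998, and the median difference over all genes moved from -0.02 to 0.07. The replicate numbers shared by the groups showed no pairing over all genes (correlations of deviations of 0.01, -0.01 and -0.05). Whether samples with the same number were handled together is not given. The fit with the replicate number as a block called 5 of the 6 chemokine genes lower, with Cxcl5 at -2.67, and 17.9% of all genes against 20.8%. After cyclic loess the difference of Cxcl2 minus that of Cxcl5 was 1.59, and that of Cxcl5 minus that of Pf4 was -1.51. Not every named gene outside the chemokine group was followed singly through the alternatives. Of those followed, Cldn3 changed its call under 12 alternatives, Tubb1 under 9, Cxcr2 under 8, Krt8 under 7, Kit under 2 and Itga2b under 1. Cxcr2 and Kit were themselves left out with the dimmest 40% of genes. Array-level background signal was not used here, so how far the low values of Cxcl5 and Ppbp in St2-/- lie above background is not known.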
